A study of Mus musculus with 4 samples.

Results

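The mitochondrial ribosomal proteins were followed here in mouse 3T3-L1 cells exposed to the antipsychotic risperidone. Members were all rows of the deposited expression table whose gene symbol starts with Mrpl or Mrps and a number, which gave 78 genes of the 16051 listed, 49 named for the large and 29 for the small subunit. The study treated differentiated 3T3-L1 cells, an embryonic mouse line of fibroblast origin that can be driven to form adipocytes, with 100 μM risperidone for 48 h or with the vehicle DMSO, and measured messenger RNA by sequencing. Each treatment was represented by 2 libraries, and RNA from 3 cultures went into every library, so the spread between the libraries of a treatment is not the spread between single cultures. Apart from risperidone, nothing in the labels sets the treatments apart, and the line, its differentiation and the harvest were shared. The labels describe the control as not treated and carry an extraction text written for retina, whereas the paper names DMSO, and its account was followed. Control is used below for the DMSO libraries.

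Mitochondria keep their own ribosome, which translates only the few messenger RNAs of the mitochondrial genome, all for subunits of the respiratory chain and the ATP synthase. The ribosomal RNAs of this machine come from mitochondrial DNA, while every protein of it is encoded in the nucleus, made in the cytosol and imported. Some of these proteins descend from the bacterial ribosome, and others occur only in mitochondria. Proteins of both subunits are needed to assemble it, and in adipocytes the respiratory chain they serve supports fatty acid oxidation and the supply of citrate for lipid synthesis.

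All 78 members passed the filter, which asked for a mean over the 4 libraries of 1 FPKM or more (fragments per kilobase of gene, scaled to library size), and the lowest count of any member in any library was 76. The libraries summed to between 15883712 and 16374119 counts. Risperidone replicate 2 stood apart from the rest, since the 12 kidney tubule markers summed to 440.8 TPM (a level scaled for length and to 1 sum per library) there and to between 4.55 and 7.14 TPM in the other 3 libraries. The hemoglobin genes Hba-a1 and Hbb-bs had 13.6 and 5 counts there and 0 in the other 3, and the 5 blood and immune markers summed to 5.87, 8.31, 12.25 and 18.26 TPM over the control and then the risperidone libraries. Against its replicate, the members in that library had a median log2 difference of −0.04, with 46 of 78 lower. For all tested genes the median was 0.0001, with 5113 of 10243 lower. The median absolute difference between the risperidone replicates was 0.081 for the members and 0.089 for all tested genes. Between the control replicates it was 0.076 and 0.066. Of 10 adipocyte markers, 3 were detected above the filter (Fabp4, Lpl and Pparg). The defining markers Adipoq, Cfd and Lep were at or near 0 in every library. Plin1, also under the filter, had 9, 14, 1 and 1 counts over the control and then the risperidone libraries. In contrast, the 6 preadipocyte and fibroblast markers were all detected. Some markers of both cell types moved with the treatment in the edgeR test described below. Fabp4 (−1.09, adjusted p = 1.64e-05) and Lpl (−0.24, adjusted p = 0.00154) fell, while Dlk1 (1.52, adjusted p = 1.11e-08), Thy1 (1.05, adjusted p = 9.2e-08) and Col1a1 (0.99, adjusted p = 1.06e-07) rose on the log2 scale, so that 2 of 3 tested adipocyte markers fell, and 3 of 6 preadipocyte and fibroblast markers rose and 1 fell. Over the control and then the risperidone libraries, Col1a2 had 1028.87, 991.61, 833.39 and 864.76 FPKM. In the same order, Pdgfra had 13.47, 13.34, 11.95 and 12.56 FPKM, and Vim 615.85, 600.47, 588.71 and 588.7 FPKM. The 6 preadipocyte and fibroblast markers together summed to 4359, 4194, 4213 and 4366 TPM, where the treatments overlapped. Of the 5 blood and immune markers only Cd68 was tested, and it rose (1.19, adjusted p = 0.000286), whereas Lyz2 had 3, 8, 5 and 4 counts and Ptprc 0, 0, 1 and 3. The part of these cell states and of the kidney and blood transcripts in the results below was not tested. In bulk RNA, fewer cells of a type and less RNA per cell cannot be told apart.

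With risperidone the members leaned upward, with exceptions that included a member with one of the highest levels in control cells. In the quasi-likelihood test of edgeR, with p-values adjusted after Benjamini and Hochberg over all 10243 genes tested, 36 of 78 members rose (46.2%) and 9 fell (11.5%) at an adjusted p under 0.05, while 33 did not pass. Among all genes tested, 32.1% rose and 32.2% fell. The median log2 fold change of the members was 0.24, with the middle of the distribution between 0.03 and 0.40, and that of all tested genes was 0.00. The upward lean depended on the scale, because the members' median was −0.01 on the log2(TPM + 1) scale, where the median of all genes was −0.22, so the members sat 0.22 above all genes there and 0.24 above them in the counts. With offsets that remove a trend with gene length the members sat 0.068 above all genes, with 45 of 78 over the median of all genes instead of 60. Both risperidone libraries lay above both control libraries in 49 members and below them in 11, and the treatments overlapped in 18. For all tested genes these shares were 41.2% above and 41.7% below. Few changes were large, since 14 members rose and 3 fell by at least 0.5 on the log2 scale, against 12.4% and 15.3% of all tested genes. Without risperidone replicate 2, 39 members rose and 8 fell, beside 32.3% and 32.7% of all genes.

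**Figure D1:**
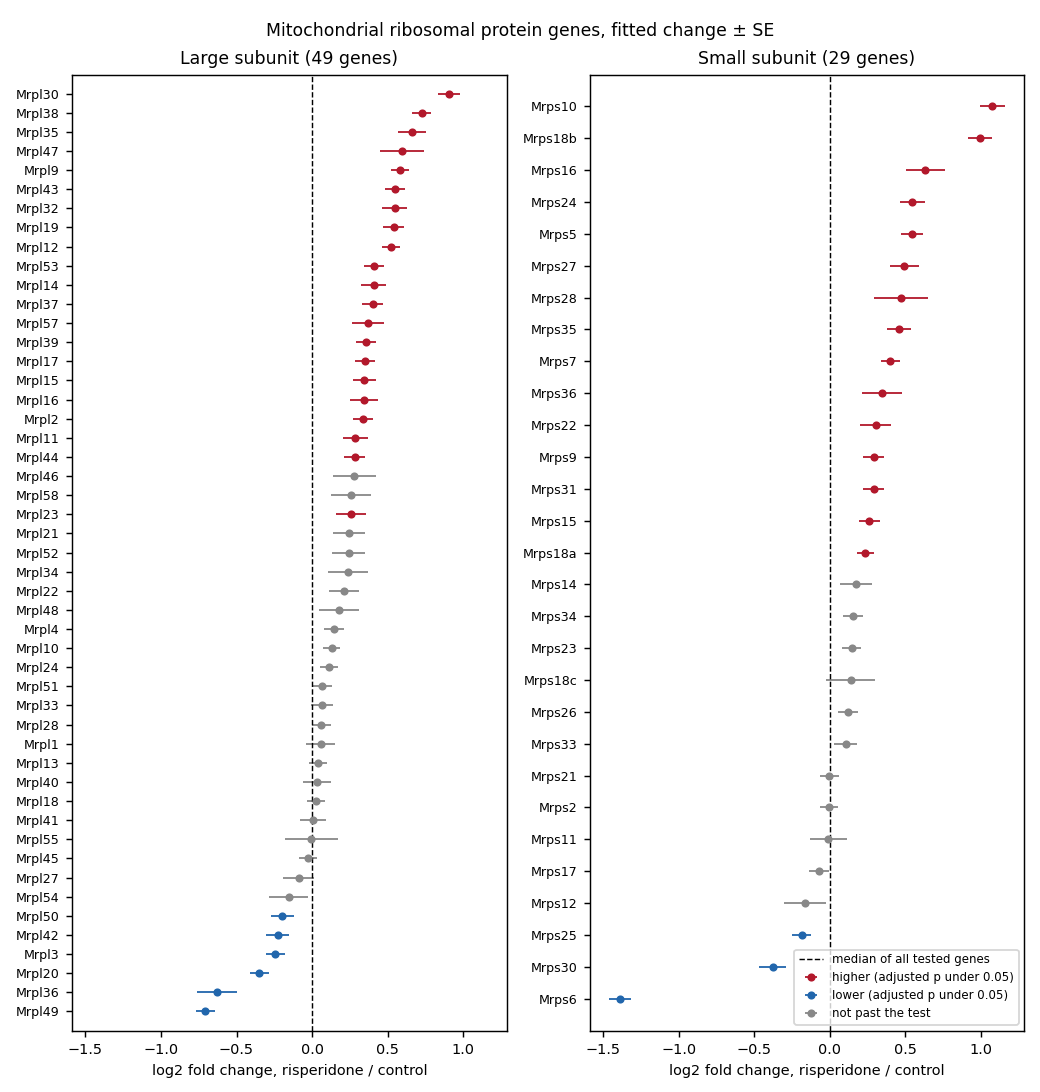
Fitted log2 fold change (risperidone over control, horizontal axis) with its standard error for the 49 members of the large and the 29 members of the small subunit, from 2 libraries per treatment. Most points lie right of the dashed median of all tested genes, and Mrps6 lies farthest left at −1.39.

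The largest rises in the small subunit were those of Mrps10, Mrps18b and Mrps16. Levels of a gene across libraries are given below as CPM, counts divided by the TMM-scaled library size, in the order control 1, control 2, risperidone 1 and risperidone 2. Mrps10, whose bacterial relative sits in the head of the subunit, had 14.5, 16.6, 32.0 and 33.5 CPM, a log2 fold change of 1.07 ± 0.083 (SE, edgeR adjusted p = 1.23e-06). Mrps18b is among the 3 mammalian relatives of a single bacterial protein and had 21.7, 20.6, 45.4 and 38.9 CPM, with a log2 fold change of 0.99 ± 0.081 (edgeR adjusted p = 1.78e-06). For both genes the risperidone libraries were about double the control libraries, with a wide gap between the treatments. Mrps16, a protein of the body of the subunit whose loss causes a respiratory chain deficiency in humans, had 13.6, 13.7, 24.0 and 18.3 CPM (0.63 ± 0.13, edgeR adjusted p = 0.00126). Its risperidone libraries were both above the controls but differed from each other by more than the controls did.

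In the large subunit, Mrpl30, Mrpl38, Mrpl35, Mrpl47 and Mrpl9 rose most. Mrpl30, a relative of a bacterial protein of the same number, had 43.8, 44.5, 87.3 and 78.3 CPM, a log2 fold change of 0.91 ± 0.071 (edgeR adjusted p = 1.27e-06). Mrpl38, which has no bacterial relative and belongs to the central protuberance that faces the small subunit, had 28.7, 31.4, 51.1 and 48.3 CPM (0.73 ± 0.065, edgeR adjusted p = 3.49e-06). In both genes the controls lay close together and far below the risperidone libraries. Mrpl35 had 17.2, 14.8, 25.5 and 25.4 CPM (0.66 ± 0.092, edgeR adjusted p = 8.93e-05). Mrpl47, at the rim of the tunnel through which the new protein leaves, had 8.79, 10.4, 15.9 and 13.1 CPM (0.60 ± 0.14, edgeR adjusted p = 0.00389). Mrpl9 had 40.6, 39.5, 59.8 and 60.1 CPM (0.58 ± 0.062, edgeR adjusted p = 1.26e-05). No library of one treatment reached the other treatment in these 3 genes, and Mrpl47, which had the fewest counts of them, had the widest error. These 8 rises passed the test under every alternative fit that was run.

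**Figure D2:**
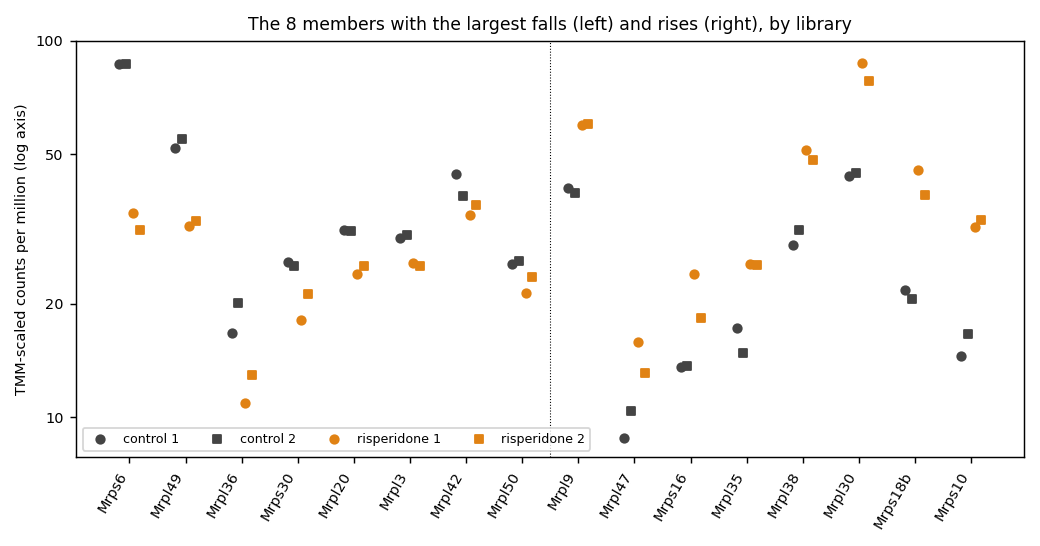
TMM-scaled CPM (vertical log axis) of the 8 members with the largest falls and the 8 with the largest rises, each point 1 library, circles replicate 1 and squares replicate 2. In every gene shown the 2 risperidone points lie on the same side of the 2 control points.

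Against this lean, Mrps6 fell more than any other member. Mrps6, a protein of the small subunit's platform with a bacterial relative, had 86.9, 86.5, 34.9 and 31.4 CPM, a log2 fold change of −1.39 ± 0.070 (edgeR adjusted p = 7.95e-08). Per length, it went from the second place among all members, with 138.6 and 138.0 FPKM in the controls, to 51.8 and 46.5 FPKM with risperidone. Mrpl49, which occurs only in mitochondria, had 51.9, 55.0, 32.1 and 33.3 CPM (−0.71 ± 0.062, edgeR adjusted p = 3.18e-06). Mrpl36, a very small zinc-binding protein with a bacterial relative, had 16.8, 20.1, 10.9 and 12.9 CPM (−0.63 ± 0.13, edgeR adjusted p = 0.00154). The drop was close to equal in both risperidone libraries for Mrps6 and Mrpl49, and Mrpl36 varied more within each treatment.

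Smaller falls followed in 6 members. Mrps30, named for the small subunit but placed in the large subunit by structures, had 25.8, 25.3, 18.1 and 21.2 CPM (−0.38 ± 0.088, edgeR adjusted p = 0.00318). Mrpl20, whose bacterial relative binds ribosomal RNA early in assembly, had 31.4, 31.2, 23.9 and 25.2 CPM (−0.35 ± 0.064, edgeR adjusted p = 0.000634). In both genes the treatments were separated by more than the spread within either. Mrpl3, near the site of peptide bond formation, had 29.9, 30.4, 25.7 and 25.2 CPM (−0.24 ± 0.063, edgeR adjusted p = 0.00552). Mrpl42 and Mrpl50, both known only from mitochondria, had log2 fold changes of −0.23 ± 0.073 (edgeR adjusted p = 0.0176) and −0.20 ± 0.076 (edgeR adjusted p = 0.0414). Mrps25, the remaining fall and the only one of these outside the rule for naming, had −0.19 ± 0.063 (edgeR adjusted p = 0.0234). The calls of these last 4 falls were lost under several alternatives. With all genes kept, Mrpl42, Mrpl50 and Mrps25 did not pass (edgeR adjusted p = 0.0820, 0.0752 and 0.0552). With length offsets Mrps25 was at −0.084 (edgeR adjusted p = 0.272), and DESeq2 called none of the 4 (adjusted p between 0.0773 and 0.246). The edgeR adjusted p of Mrpl3 was 0.0599 without control replicate 2. That of Mrpl42 was 0.202 without control replicate 1 and 0.0863 without risperidone replicate 1. For Mrpl50 it was 0.150, 0.239 and 0.227 without control replicate 1, control replicate 2 and risperidone replicate 1, and for Mrps25 it was 0.128, 0.0701 and 0.0621 without control replicate 1, control replicate 2 and risperidone replicate 2. Mrps6, Mrpl49, Mrpl36, Mrps30 and Mrpl20 passed the test in every alternative fit.

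The 250 bases before a RefSeq start site of each of the 4 members with the largest changes are shown. Members of 1 complex moved in opposite directions, and these are stretches that precede their start sites. Sequences were taken from RefSeq (GRCm38.p6) and are written 5′ to 3′ on the strand of the gene, with capitals for any match to the 4 motifs searched, which are named further on. The stretches are chr16:92058086-92058335 on the plus strand for Mrps6 (NCBI Gene 121022), chr17:47368947-47369196 on the plus strand for Mrps10 (64657), chr17:35916441-35916690 on the minus strand for Mrps18b (66973) and chr1:37890227-37890476 on the plus strand for Mrpl30 (107734). The RefSeq span of Mrps10 starts at 47368887, ahead of its printed stretch, so that stretch precedes a later start site within the gene. The RefSeq spans of the other 3 genes start where their stretches end. GENCODE M21 is used further on for gene positions.
Mrps6: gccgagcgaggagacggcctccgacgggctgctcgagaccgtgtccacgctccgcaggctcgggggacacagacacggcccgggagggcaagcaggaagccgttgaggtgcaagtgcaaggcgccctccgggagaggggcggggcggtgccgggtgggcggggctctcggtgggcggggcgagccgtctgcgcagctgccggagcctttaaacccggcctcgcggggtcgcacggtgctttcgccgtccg
Mrps10: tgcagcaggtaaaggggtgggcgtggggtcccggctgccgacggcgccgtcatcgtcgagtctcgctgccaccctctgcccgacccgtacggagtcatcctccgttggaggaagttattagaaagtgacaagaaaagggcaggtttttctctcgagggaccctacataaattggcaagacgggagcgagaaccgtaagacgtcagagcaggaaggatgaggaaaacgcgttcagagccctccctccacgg
Mrps18b: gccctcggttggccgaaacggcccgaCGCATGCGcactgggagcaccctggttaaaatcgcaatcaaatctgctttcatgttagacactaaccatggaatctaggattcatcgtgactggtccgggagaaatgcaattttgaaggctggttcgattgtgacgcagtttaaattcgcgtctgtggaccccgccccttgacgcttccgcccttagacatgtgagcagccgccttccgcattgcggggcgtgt
Mrpl30: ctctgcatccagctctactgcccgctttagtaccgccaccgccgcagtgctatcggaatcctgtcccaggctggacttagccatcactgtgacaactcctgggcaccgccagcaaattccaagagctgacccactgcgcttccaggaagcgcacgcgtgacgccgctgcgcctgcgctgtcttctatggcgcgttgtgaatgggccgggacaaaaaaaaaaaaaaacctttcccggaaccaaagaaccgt
The Mrps18b stretch held the only match, to the motif of the factor NRF1, and no match in the other 3 says only that these letters are absent from the stretch.

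Levels differed widely between members. Per length, the median of the members' mean levels was 27.2 FPKM, with 14 members over 50 and 8 under 10. Mrps21 was highest at a mean of 150.1 FPKM over the 4 libraries, followed by Mrpl30 at 109.5, Mrps6 at 93.7, Mrpl33 at 80.8 and Mrpl14 at 76.5 FPKM. Lowest were Mrpl19 at 5.33, Mrpl35 at 5.76, Mrpl15 at 7.85, Mrpl55 at 7.87 and Mrpl11 at 7.88 FPKM. The order at the top was not kept with risperidone, where Mrpl30 reached 148.4 and 130.9 FPKM and Mrps21 147.1 and 140.4 FPKM, so these genes overlapped. Of the 5 lowest, 4 rose, beside 46.2% of all members and 32.1% of all genes, with log2 fold changes of 0.54 ± 0.067 for Mrpl19, 0.66 ± 0.092 for Mrpl35, 0.35 ± 0.076 for Mrpl15 and 0.29 ± 0.084 for Mrpl11 (edgeR adjusted p = 3.7e-05, 8.93e-05, 0.00212 and 0.0115). The call for Mrpl11 was lost without control replicate 1 (edgeR adjusted p = 0.161), with library size only (edgeR adjusted p = 0.0683) and in DESeq2 (adjusted p = 0.0918). On the FPKM scale Mrpl15 and Mrpl11 did not pass (both 0.17, limma adjusted p = 0.112 and 0.0902), and on the TPM scale Mrpl15 and Mrpl11 were at 0.044 and 0.045 (limma adjusted p = 0.706 and 0.680). Of the highest, Mrpl14, which lies at the interface of the subunits, rose with 32.6, 29.4, 44.6 and 37.6 CPM (0.41 ± 0.084, edgeR adjusted p = 0.00146). That call was lost with length offsets (0.14, edgeR adjusted p = 0.122) and on the TPM scale (0.15, limma adjusted p = 0.0948). Mrpl33 had 27.2, 25.7, 28.9 and 26.5 CPM, where the treatments overlapped, and −0.28 with length offsets (edgeR adjusted p = 0.00281).

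Other members had nearly the same CPM in both treatments. Mrps21, Mrps2, Mrps11, Mrpl55 and Mrpl41, the 5 with the smallest fitted changes among the members whose treatments overlapped, had log2 fold changes between −0.01 and 0.01. Mrps2, with a bacterial relative on the back of the small subunit, had 50.6, 50.7, 50.8 and 50.2 CPM. Mrps21 had 47.4, 44.4, 47.0 and 44.7 CPM, and Mrpl55 had 5.82, 7.14, 6.08 and 6.84 CPM. The error of these differences ran from ± 0.061 for Mrps2 to ± 0.17 for Mrpl55, so a change of the size of the members' median could be seen in the first and not in the second. On the TPM scale 4 of the 5 were lower with risperidone, Mrps21 at −0.26, Mrps2 at −0.24, Mrps11 at −0.25 and Mrpl41 at −0.23 (limma adjusted p = 0.00175, 0.0048, 0.0112 and 0.0361). With length offsets Mrps21 was at −0.37 (edgeR adjusted p = 0.000322).

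Within the large subunit the functional regions were described by their lists. The stalk recruits the translation factors, and its members Mrpl10, Mrpl11 and Mrpl12 had both risperidone libraries above both controls, as 41.2% of all tested genes did. Of these 3 members 2 rose. Mrpl12, present in several copies per ribosome, had 33.6, 31.1, 46.5 and 46.4 CPM (0.52 ± 0.060, edgeR adjusted p = 2.25e-05). Mrpl10, which anchors Mrpl12, had 83.2, 78.7, 88.5 and 88.8 CPM and did not pass (0.13 ± 0.057, edgeR adjusted p = 0.0624, and 0.0217 with the replicate numbers crossed as a block). At the rim of the exit tunnel 4 of 7 rose, none fell and the median log2 fold change was 0.26. Mrpl45, which ties the ribosome to the inner membrane, was among those that did not pass, with 48.9, 47.4, 47.0 and 47.4 CPM, although it was lower on the TPM scale (−0.26, limma adjusted p = 0.00486). In the central protuberance 1 of 8 rose, the Mrpl38 described above, and none fell, with a median of 0.21. Mrpl58, which can release stalled peptides and also sits in the central protuberance, had 9.27, 10.6, 11.7 and 12.1 CPM and did not pass (0.26 ± 0.13, edgeR adjusted p = 0.112). At an unadjusted p under 0.05 and in DESeq2, 0 members of the rim and 0 of the central protuberance were lower, and on the TPM scale 1 and 2 were. These shares stand beside 42.9% rising and 12.2% falling among all large-subunit members and 32.1% and 32.2% among all genes.

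The 3 relatives of bacterial S18 have different places in the mammalian ribosome, and their values differed. Mrps18b rose as given above. Mrps18a, built into the large subunit, had 33.2, 34.4, 39.5 and 40.1 CPM (0.24 ± 0.058, edgeR adjusted p = 0.00407). Its call was lost with length offsets (0.068, edgeR adjusted p = 0.312), with library size only (edgeR adjusted p = 0.0515), in DESeq2 (adjusted p = 0.0735) and on the TPM scale (−0.010, limma adjusted p = 0.878). Mrps18c, which takes the place of the bacterial protein, had 11.4, 16.7, 14.97 and 15.9 CPM, where both risperidone libraries lay between the controls (0.14 ± 0.16, edgeR adjusted p = 0.469). Mrps36 carries a ribosomal name but has been assigned to the alpha-ketoglutarate dehydrogenase complex, and it had 17.5, 17.7, 19.5 and 22.1 FPKM (0.35 ± 0.13, edgeR adjusted p = 0.0371). The call for Mrps36 was lost without control replicate 1, control replicate 2 or risperidone replicate 2 (edgeR adjusted p = 0.160, 0.139 and 0.118), without the filter (edgeR adjusted p = 0.0507), with library size only (edgeR adjusted p = 0.114), in DESeq2 (adjusted p = 0.134), on the TPM scale (0.093, limma adjusted p = 0.334) and with length offsets (0.13, edgeR adjusted p = 0.417). Mrps12, at the decoding site, had 9.38, 9.39, 8.57 and 8.19 CPM and did not pass (−0.16 ± 0.14, edgeR adjusted p = 0.317). It was lower with length offsets (−0.39, edgeR adjusted p = 0.0245), on the FPKM scale (−0.26, limma adjusted p = 0.00594) and on the TPM scale (−0.41, limma adjusted p = 0.000483).

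The subunits were compared next, since both must be supplied with protein to make a ribosome. In the large subunit 21 of 49 members rose (42.9%) and 6 fell (12.2%), and in the small subunit 15 of 29 rose (51.7%) and 3 fell (10.3%), beside 32.1% and 32.2% of all genes. Their median log2 fold changes, 0.24 in each, differed by 0.01, and the direction of that small gap turned with the choice of libraries and with length offsets. Counting Mrps18a and Mrps30 as large and leaving out Mrps36, as structures place them, gave 22 of 51 rising (43.1%) and 7 falling (13.7%) in the large subunit and 13 of 26 (50%) and 2 (7.69%) in the small. By descent, 22 of 46 members that take the place of a bacterial protein rose (47.8%) and 4 fell (8.7%), and 12 of 29 members without such a counterpart, with Mrps18b counted among them, rose (41.4%) and 4 fell (13.8%), with medians of 0.24 for both. Mrps18a, Mrps30 and Mrps36 were left out of this split.

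Summed levels of the subunits shifted against each other, in a direction that rested on Mrps6. The large-subunit members summed to 3190, 3155, 3115 and 3115 TPM and the small-subunit members to 1982, 1987, 1795 and 1777 TPM in the order of the libraries. The ratio of large to small was therefore 1.61, 1.59, 1.74 and 1.75, or 1.599 ± 0.015 (SD, n = 2) in control and 1.744 ± 0.013 with risperidone. The ratios did not overlap, and the exact permutation test on 2 against 2 libraries gave p = 0.33, the smallest it can give. Without Mrps6 the ratio was 1.88, 1.85, 1.83 and 1.85, with a lower mean for risperidone than for control. The small-subunit sum without Mrps6 was 1695, 1703, 1701 and 1688 TPM, where the treatments overlapped. The direction of the ratio thus turned when this gene was left out.

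**Figure D3:**
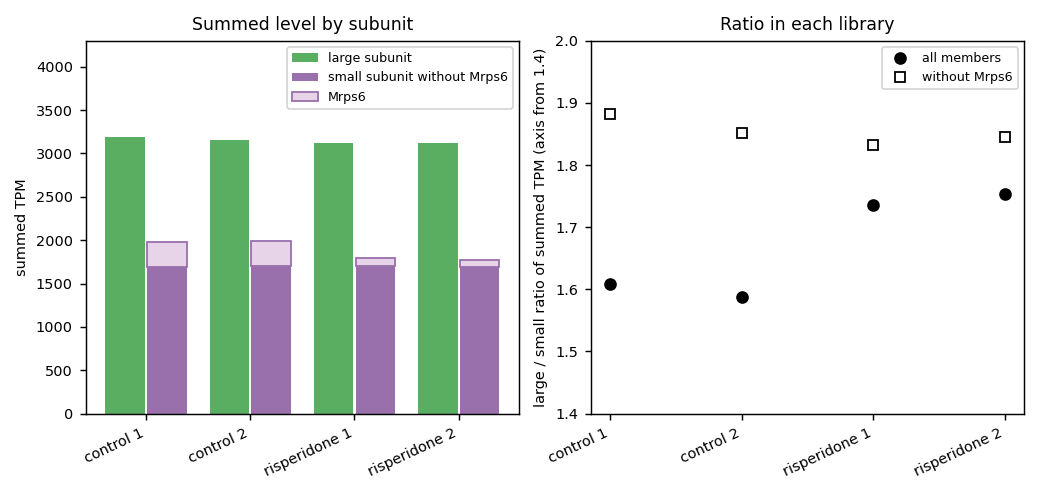
Left, summed TPM of the large and small subunit members in each of the 4 libraries, with the share of Mrps6 as the pale part of the small-subunit bar. Right, the ratio of large to small in each library with all members (filled, 1.59 to 1.75) and without Mrps6 (open, 1.83 to 1.88), on an axis that starts at 1.4.

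Taken over both subunits, the summed level changed direction with the unit. The 78 members summed to 5171, 5142, 4910 and 4892 TPM, lower with risperidone, while their FPKM summed to 2497, 2505, 2681 and 2570 and their share of all counts was 0.228%, 0.230%, 0.247% and 0.241%, both higher with risperidone. The treatments did not overlap on any of these scales (exact permutation p = 0.33 for each). In the same libraries the cytosolic ribosomal proteins summed to 138600, 139500, 220700 and 205500 TPM. The TPM of cytosolic over mitochondrial ribosomal proteins was 26.8, 27.1, 45.0 and 42.0, so the balance between these sets of genes moved in the same direction in both risperidone libraries. Of 80 cytosolic ribosomal proteins 77 rose and none fell (0 at an unadjusted p under 0.05, 0 in DESeq2, 1 with length offsets, 1 on the FPKM scale and 2 on the TPM scale), with a median log2 fold change of 0.87, against 36 of 78 rising and 0.24 for the mitochondrial ones.

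Most members are short genes, and short genes as a class were shifted upward in these libraries. The median effective length, taken from the counts and FPKM, was 0.919 kb for the members and 2.70 kb for all genes tested, and 72 of 78 members were shorter than the latter. Across genes, Spearman's rho between length and log2 fold change was −0.168 for all tested genes and 0.043 for the members, given as a description only since these genes share libraries. When all tested genes were split by length into 10 groups of equal size, the shortest group had a median log2 fold change of 0.16, with 41.2% rising and 17.8% falling. The 45 members in that group had a median of 0.24, with 18 rising and 4 falling. In the next group all genes had a median of 0.09 with 36.4% rising and 20.5% falling, and its 17 members had a median of 0.29 with 10 rising and 2 falling. With offsets that remove a trend with length from each library, 29 members rose and 14 fell beside 33.4% and 31.9% of all genes, with a median of 0.07 against 0.01 for all genes, and all 29 were among the 36. The part of length in the members' lean beyond these values was not tested.

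**Figure D4:**
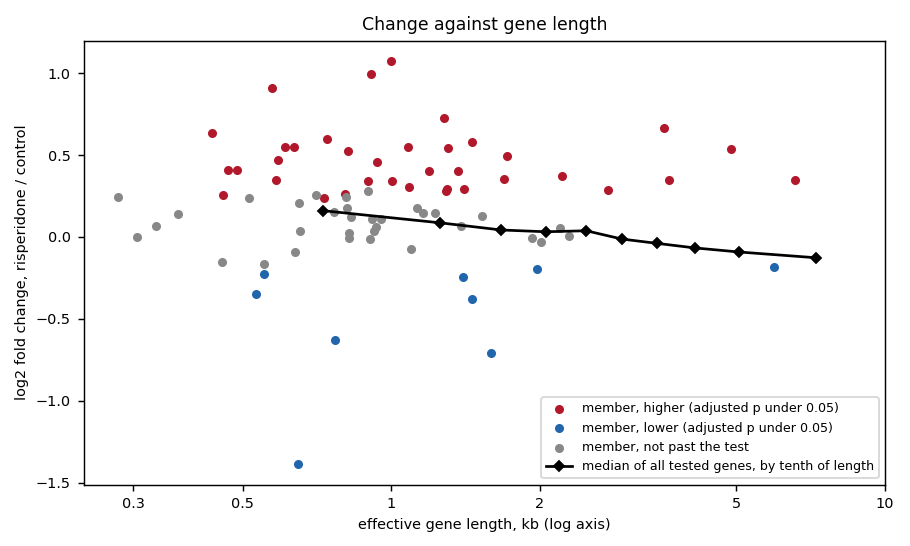
Log2 fold change of each member (risperidone over control, vertical axis) against effective gene length in kb on a log axis, coloured by the test result. The black line joins the medians of all tested genes in 10 groups of equal size, from 0.16 in the shortest to −0.13 in the longest, and members lie on both sides of it. Of the 14 members that rose by at least 0.5, 12 are shorter than the median tested gene, beside 72 of all 78 members.

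Some members share sequence with a neighbour, and their counts are less certain for that reason. Exons of 24 of the 78 members overlapped those of another annotated gene (GENCODE M21, GRCm38), in 3 of them on the same strand. Whether counting used the strand is not given in the sources used here. Mrps6 shares 159 of its 846 exon bases with Slc5a3, a transporter of myo-inositol on the same strand, and 305 with Gm49711. Slc5a3 had 141.5, 138.2, 91.8 and 89.8 CPM (−0.62 ± 0.048, edgeR adjusted p = 1.12e-06), so the genes that share these bases both fell. Mrpl53 lies wholly inside the exons of Gm42688 on the same strand. Mrps25 shares 3533 of 6073 bases with Nr2c2, and Mrpl19 shares 1962 of 5000 with Gcfc2, both on the opposite strand. Mrps18b, among the largest rises, shares 638 of 1079 with the antisense gene Gm16279 on the opposite strand. No log2 fold change was available for Gm16279. Nr2c2 and Gcfc2 had log2 fold changes of −0.60 and −0.64, of the same sign as Mrps25 and of the opposite sign to Mrpl19.

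Many members share a start region with a gene on the other strand. A protein-coding gene on the other strand had its start within 1000 bases of the member's start, some of them overlapping it, for 33 of 78 members (42.3%), against 1843 of 10125 tested genes (18.2%). Of the 26 distinct pairs with both genes tested, where Mrpl46 and Mrps11 are each other's partner, both genes passed in 10, and 5 of these 10 moved in the same direction. These 10 were 38.5% of the pairs tested, beside 35.8% of the 772 such pairs among all tested genes, of which 55.4% of the pairs called moved in the same direction. The partners below were picked after their values were seen. Ppp1r10, a nuclear regulator of protein phosphatase 1 whose start lies 45 bases from that of Mrps18b, had 48.1, 48.6, 18.1 and 18.1 CPM (−1.42 ± 0.061, edgeR adjusted p = 3e-08), while Mrps18b rose. Mitd1, 66 bases from Mrpl30, had 10.6, 11.4, 7.42 and 6.06 CPM (−0.70 ± 0.15, edgeR adjusted p = 0.00197), while Mrpl30 rose. Both gaps lie within the stretches printed above. Fau, which encodes a cytosolic ribosomal protein fused to a ubiquitin-like part and starts 59 bases from Mrpl49, had 482.8, 490.9, 975.6 and 836.2 CPM (0.90 ± 0.068, edgeR adjusted p = 1.06e-06), while Mrpl49 fell. Cyb5rl and Mrpl37 showed the same opposition, with log2 fold changes of −1.39 and 0.40. In other pairs both rose, as for Mrps27 and Ptcd2 (0.49 and 0.67, edgeR adjusted p = 0.001 and 2.93e-05) and for Mrpl47 and Ndufb5 (0.60 and 0.47, edgeR adjusted p = 0.00389 and 6.75e-05).

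Sequence motifs of factors known from mitochondrial genes were counted in the RefSeq windows from 250 bases before to 50 bases after the start, on both strands, for the 69 members with a window. The letters searched were CGCATGCG for NRF1, CCGGAAG for ETS factors such as GABP, AAGATGGCG for YY1 and CACGTG for the E-box that Myc binds, and a match is a description and not a bound site. The NRF1 motif occurred in 7 members (10.1%), against 4.9% of the tested genes and 2.1% of all genes with a window. The ETS motif occurred in 26 members (37.7%), against 22.2% and 9.9%, and the YY1 motif in 8 (11.6%), against 4.1% and 1.6%. The E-box occurred in 5 (7.2%), against 12.1% and 8.1%. Members with the ETS motif had a median log2 fold change of 0.22 and those without it 0.26. For the NRF1 motif the medians were 0.36 with it and 0.21 without it, over 7 and 62 genes, too few with the motif to compare. The same holds for the YY1 motif, with 0.32 and 0.24 over 8 and 61 genes, and for the E-box, with 0.14 and 0.24 over 5 and 64.

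The genes of the factors that bind such motifs moved in both directions. Of 12 tested, 4 rose (33.3%) and 6 fell (50%), beside 32.1% and 32.2% of all genes, with a median log2 fold change of −0.10. Myc, a general activator of growth genes, had 13.4, 13.7, 42.1 and 32.8 CPM (1.47 ± 0.11, edgeR adjusted p = 1.18e-06). Pprc1, a coactivator of the PGC-1 family, had 57.7, 54.7, 81.3 and 79.3 CPM (0.51 ± 0.062, edgeR adjusted p = 3.17e-05). Both were higher in each risperidone library than in either control. Gabpb2, a partner of the ETS protein Gabpa, had 93.3, 94.3, 47.0 and 46.3 CPM (−1.01 ± 0.060, edgeR adjusted p = 2.14e-07), and Elk4, another ETS factor, had 10.2, 10.1, 4.61 and 5.87 CPM (−0.95 ± 0.16, edgeR adjusted p = 0.000428). The factors whose motifs were searched are outside the rule for naming and were added after their values were seen. Yy1 had −0.25 ± 0.056 (edgeR adjusted p = 0.00242), Nrf1 had −0.22 ± 0.062 (edgeR adjusted p = 0.0106) and Gabpa had −0.14 ± 0.052 (edgeR adjusted p = 0.0384). The call for Nrf1 was lost without control replicate 1 (edgeR adjusted p = 0.124), in DESeq2 (adjusted p = 0.127), on the FPKM scale (−0.048, limma adjusted p = 0.623) and on the TPM scale (−0.19, limma adjusted p = 0.0813), and its FPKM values overlapped between the treatments. That for Gabpa was lost without control replicate 1, control replicate 2 or risperidone replicate 2 (edgeR adjusted p = 0.127, 0.378 and 0.0822), with the replicate block (edgeR adjusted p = 0.0533), without the filter (edgeR adjusted p = 0.0756), in DESeq2 (adjusted p = 0.148) and with length offsets (−0.046, edgeR adjusted p = 0.444). Levels of these RNAs do not measure the activity of the factors.

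Subunits of the mitochondrial ribosome that carry other names had a median log2 fold change of −0.11, beside 0.24 for the members. Of 5 tested, 2 rose (40%) and none fell in edgeR with the TMM scaling, beside 32.1% and 32.2% of all genes. At an unadjusted p under 0.05 in that fit 2 were lower. DESeq2 called 0 of them lower, and edgeR with length offsets and limma on the FPKM and TPM scales each called 3. Chchd1, in the small subunit, had 11.4, 11.2, 18.5 and 18.8 CPM (0.72 ± 0.11, edgeR adjusted p = 0.000155). Dap3, the GTP-binding protein of the small subunit, had 96.0, 99.4, 107.3 and 105.3 CPM (0.12 ± 0.049, edgeR adjusted p = 0.0489), a call that was lost without control replicate 1, control replicate 2 or risperidone replicate 1 (edgeR adjusted p = 0.399, 0.192 and 0.108). Dap3 passed in few other settings, since it also failed without the filter, at 5 FPKM and with the replicate block (edgeR adjusted p = 0.0913, 0.0847 and 0.0866), with library size only (0.028, edgeR adjusted p = 0.631), with length offsets (0.060, edgeR adjusted p = 0.246), in DESeq2 (adjusted p = 0.180) and on the FPKM scale (0.053, limma adjusted p = 0.324). Gadd45gip1, Ptcd3 and Aurkaip1 had log2 fold changes of −0.24 ± 0.11, −0.15 ± 0.065 and −0.11 ± 0.060 and did not pass (edgeR adjusted p = 0.0688, 0.0560 and 0.121). In all 3 of these genes both risperidone libraries lay below both controls, as they did in 41.7% of all tested genes. With length offsets all 3 passed as lower (edgeR adjusted p = 0.0338, 0.0279 and 0.00812 in the same order), and so they did with library size only (edgeR adjusted p = 0.0171, 0.00684 and 0.0121). At 5 FPKM Gadd45gip1 and Ptcd3 passed (edgeR adjusted p = 0.0469 and 0.0328). Ptcd3 also passed with the replicate block (edgeR adjusted p = 0.0419) and without risperidone replicate 2 (edgeR adjusted p = 0.0387), and Gadd45gip1 without risperidone replicate 1 (edgeR adjusted p = 0.0486).

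Assembly factors, which fold and modify the ribosomal RNA and load the proteins, moved in both directions. Of 23 tested, 8 rose (34.8%) and 3 fell (13%), beside 32.1% and 32.2% of all genes, with a median of 0.20. Rcc1l, a factor of large-subunit assembly, had 9.03, 9.46, 15.6 and 14.8 CPM (0.71 ± 0.12, edgeR adjusted p = 0.000404), and Malsu1, which keeps the subunits from joining too early, had 28.5, 30.2, 47.2 and 45.9 CPM (0.67 ± 0.060, edgeR adjusted p = 3.45e-06). Mrm2, a methyltransferase of the large ribosomal RNA, had 6.47, 5.37, 2.94 and 3.94 CPM (−0.78 ± 0.21, edgeR adjusted p = 0.0071), which was 0.0706 without control replicate 1. Noa1, a GTPase of ribosome assembly, had 21.4, 22.8, 13.2 and 14.5 CPM (−0.68 ± 0.098, edgeR adjusted p = 0.000122).

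The translation factors that work with the finished ribosome, and separately the genes of mitochondrial transcription, had medians below that of all genes. Of 15 translation factors tested 2 rose (13.3%) and 4 fell (26.7%), with a median of −0.17, and of 11 genes of mitochondrial transcription 1 rose (9.09%) and 3 fell (27.3%), beside 32.1% and 32.2% of all genes, with a median of −0.14. Gfm1, which moves the ribosome along the message, had 99.3, 98.2, 125.6 and 124.2 CPM (0.34 ± 0.047, edgeR adjusted p = 8.28e-05), and 0.098 on the TPM scale (limma adjusted p = 0.131). Mtrf1l, a release factor, had 7.96, 7.69, 5.05 and 4.90 CPM (−0.65 ± 0.16, edgeR adjusted p = 0.00417). Lrpprc, which stabilises mitochondrial messages, had 120.9, 122.8, 89.9 and 96.0 CPM (−0.39 ± 0.051, edgeR adjusted p = 5.63e-05). All 3 had treatments that did not overlap. Mtfmt, which formylates the initiator methionine, had −0.43 ± 0.096 (edgeR adjusted p = 0.00246, and 0.0556 without control replicate 2). Of the transcription genes, Tfam, which packages mitochondrial DNA, had 28.2, 28.5, 22.6 and 23.2 CPM (−0.31 ± 0.067, edgeR adjusted p = 0.00206), Tfb2m had −0.32 ± 0.063 (edgeR adjusted p = 0.000994) and Mterf2 had −1.04 ± 0.25 (edgeR adjusted p = 0.00361). Polrmt, the RNA polymerase of mitochondria, had 0.20 ± 0.072 (edgeR adjusted p = 0.0288), a call lost without control replicate 2 or risperidone replicate 1 (edgeR adjusted p = 0.0930 and 0.291), without the filter (edgeR adjusted p = 0.115), with library size only (0.11, edgeR adjusted p = 0.193), in DESeq2 (adjusted p = 0.159) and on the FPKM scale (0.094, limma adjusted p = 0.317). Messages encoded by mitochondrial DNA were not analysed here.

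**Figure D5:**
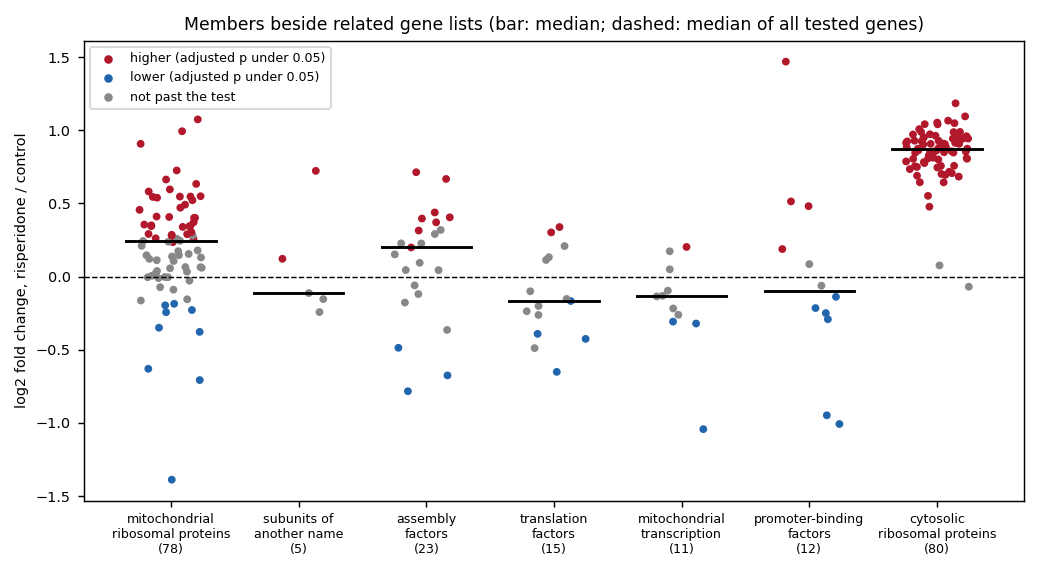
Log2 fold change (risperidone over control) of every tested gene in 7 lists, each point 1 gene, with the median of each list as a bar and the number of genes in brackets. The medians run from −0.17 for the mitochondrial translation factors to 0.87 for the cytosolic ribosomal proteins, with 0.24 for the mitochondrial ribosomal proteins.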

How the data were processed

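RNA of differentiated 3T3-L1 cells was sequenced by the authors on MGISEQ-2000 as 2 libraries per treatment, after removal of adaptor, poly-N and low-quality reads. The submitters' processing notes name Bowtie2, RSEM, DESeq2 and the build GRCm38.p6, without versions of the tools. The deposited estimated counts (expected counts) are not normalized, the deposited FPKM values are scaled by the authors for length and library, and the deposited TPM values are scaled to 1 sum per library. Paired with their labels, all value columns of the 4 libraries were used. The authors' mean columns for each treatment were not used.

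Counts were rounded, and genes averaging 1 FPKM or more, 10243 in number, were tested with edgeR 4.0.16 in R 4.3.3 (TMM, quasi-likelihood F test, 2-sided, Benjamini-Hochberg adjustment, threshold 0.05). Each standard error is the size of the log2 fold change over the square root of F. The TMM factors were 1.03, 1.03, 0.963 and 0.973, and FPKM values do not carry them. The biological coefficient of variation was 0.0468. A count of 0 would allow up to 3 counts, or 0.183 to 0.189 CPM, and such limits cover counting error only. p-values measure the spread between these pooled libraries. Gene lists came from general knowledge. The members and lists were chosen with earlier results of these data known, so a list's direction is described by counts and medians and is not independent support.

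Named genes were the 8 largest rises and 8 largest falls past the threshold without overlap of the treatments, the 5 highest and 5 lowest members by mean FPKM, up to 5 overlapping members with the smallest change, the S18 relatives, the stalk, single members of known function, and up to 4 changed genes of each other list, lists of 8 or fewer genes in full. The rim of the exit tunnel and the central protuberance, with 7 and 8 genes, were an exception, and only single members of them are named. Alternatives were no filter, 5 FPKM, a replicate block, RLE factors, library size alone, DESeq2 1.42.0, limma 3.58.1 on log2(FPKM + 1) and log2(TPM + 1), offsets for length or for length and GC content, other subunit assignments and units, and each library left out. Same-numbered libraries were checked for pairing, and their deviations correlated at −0.139 over all tested genes and 0.161 over the members, and no source ties the numbers, so the numbers were not taken as pairs. The tests were tried on simulated data first. Sums, tables and plots were made in Python 3.11.15 with pandas 2.3.3, scipy 1.17.1 and matplotlib 3.10.9.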

Additional observations from a re-analysis of the deposited data

How the results depend on the processing

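No alternative turned a called member to a call in the opposite direction. The TPM scale gave 1536 genes higher (15%) and 5292 lower (51.7%) among all tested, 18 members higher and 24 lower (10 and 16 in the large, 8 and 8 in the small subunit) and a median of −0.0084 for the members. There the log2 fold change was −0.19 for Mrpl33, −0.23 for Mrpl41, −0.010 for Mrps18a, −0.092 for Mrps18c, −0.12 for Mrpl10, −0.089 for Dap3 and −0.037 for Polrmt, all positive in the counts. DESeq2 called 25 members higher and 5 lower (25.8% and 25.9% of all genes), with 8 higher in the small and 3 lower in the large subunit. Length offsets gave 14 members lower (31.9% of all genes), 10 of them large, a median of 0.074, a large minus small gap of −0.024, and −0.28, −0.017 and −0.18 for Mrpl33, Mrpl41 and Mrps18c. Length and GC offsets, chosen after seeing the data, gave 0.075 and −0.041 for the same summaries and −0.26, −0.0028 and −0.14 for the same genes. The members' median was 0.22 with a mean of at least 5 FPKM (Mrpl41 −0.018), 0.15 with library size only (Mrpl33 −0.029, Mrpl41 −0.087) and 0.13 with limma on FPKM, where 5 small-subunit members were lower (38.8% of all genes), the large minus small gap was 0.0021 and Mrpl33 and Mrpl41 were at −0.049 and −0.085. The causes of these moves were not tested.

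With 1 library left out in turn, 28 to 39 members were higher (26% to 32.3% of all genes) and 6 to 8 lower (26.6% to 32.7%), the members' median ran from 0.21 to 0.25 and the large minus small gap from −0.019 to 0.017. Small differences turned sign, and their ranges ran from −0.048 to 0.046 for Mrps21, from −0.014 to 0.0055 for Mrps2, from −0.10 to 0.11 for Mrpl41 and from −0.11 to 0.43 for Mrps18c. Without control replicate 1, Mrps21 was at 0.046, Mrpl41 at −0.063 and Mrps18c at −0.11, and without control replicate 2 Mrpl55 was at 0.15 and Mrps11 at 0.0016. Without risperidone replicate 1, Mrpl33 was at −0.0023, Mrpl55 at 0.079 and Mrpl41 at −0.10, and without risperidone replicate 2 Mrps21 was at 0.034, Mrps2 at 0.0055 and Mrps11 at 0.021. A lone library was assumed to vary like the other treatment.

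The log2 ratio of risperidone to control in large to small summed TPM was 0.13, and −0.023 without Mrps6, left out after seeing the data. For the summed TPM of all members it was −0.073, and 0.092 for the share of counts, 0.070 for FPKM, −0.035 without the 3 highest members and −0.019 without Mrps6. The replicate block gave 35 members higher and 8 lower (32.1% and 32.4% of all genes), with Mrpl50, Gabpa and Dap3 losing their calls (edgeR adjusted p = 0.0542, 0.0533 and 0.0866). The deviations of same-numbered libraries correlated at −0.139 over all tested genes and 0.161 over the members, and the crossed pairing, added after seeing the data, gave 39 higher and 9 lower (33.9% and 34.4%). No member's symbol marked a pseudogene or antisense transcript. In all, 18 rises and 5 falls passed in every setting. The share of all tested genes that did so was not counted, so these counts have no background beside them. With 2 libraries per treatment, and with low counts for Mrpl55, Mrps28 and Mrps12, smaller changes than those called may go unseen.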
